A study of Rattus norvegicus with 15 samples.

Results

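Immediate early genes were examined in the brain of rats after intracerebral hemorrhage (ICH), bleeding into the brain tissue. A list of 9 genes was chosen by name and Ensembl identifier: Npas4 (ENSRNOG00000020009), Fos (ENSRNOG00000008015), Jun (ENSRNOG00000026293), Egr1 (ENSRNOG00000019422), Egr2 (ENSRNOG00000000640), Arc (ENSRNOG00000043465), Nr4a1 (ENSRNOG00000007607), Junb (ENSRNOG00000042838) and Dusp1 (ENSRNOG00000003977). The count table held 15094 genes and rows for 7 of the 9, while Junb and Dusp1 were not analysed here. The names are those the list gave to the identifiers, because the table itself holds identifiers only. All 7 passed the filter on low counts. The list carries no threshold of its own, but it was chosen by a reader of earlier results on these libraries, and the measured values known then were the counts of Npas4, which were lower in ICH than in sham. The levels of Npas4 in the drug group were known as well. The comparison of hemorrhage with sham is therefore given as a description for all 7 genes, and Npas4 is described without a test in every comparison. The other 6 genes were tested in the comparisons that involve the drug.

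The rats were of the Sprague-Dawley strain, and RNA was sequenced from brain labelled as basal ganglia cells, taken 72 h after modelling. The groups were a sham operation (Sham), hemorrhage alone (ICH), and hemorrhage followed by treatment with mithramycin A (ICH_MA), so the drug group carries the hemorrhage too. Mithramycin A is an antibiotic that binds GC-rich DNA and is used to block the transcription factor Sp1. The design named 5 rats per group, and libraries of 5 Sham, 3 ICH (replicates 1, 2 and 5) and 3 ICH_MA rats (replicates 1, 2 and 3) were analysed. The way of inducing the bleed, its side and size, the dose and route of the drug, and the age and sex of the rats are not stated in the sources at hand. Rows could not be paired with names outside the list, so the labelled tissue was not checked against markers of basal ganglia or of any cell type.

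Immediate early genes are switched on within minutes of a stimulus without the need for new protein, and their RNAs decay quickly. In neurons, calcium entering through synaptic receptors and channels activates kinases that act on the factors CREB and SRF, already bound at the promoters of these genes, and the RNAs are read as a sign of recent neuronal activity. Npas4 and Arc are largely neuronal, whereas Fos, Jun, Egr1 and Nr4a1 are also induced in glia, vessels and immune cells. In bulk tissue, fewer cells of a type and less RNA per cell cannot be told apart.

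Promoter sequences were available for 4 of the 7 measured genes (Egr1, Egr2, Npas4 and Nr4a1), from RefSeq, build GRCr8. They are shown because the genes shared a profile over the libraries and 2 DNA elements are the known entry points of activity signals. The window is the 250 bases before the transcript start. Capitals mark the short core TGACG of the cAMP response element (CRE, bound by CREB), read on either strand so that it may appear as CGTCA, and the CArG box, bound by SRF.
Egr1, chr18:26736828-26737077, plus strand: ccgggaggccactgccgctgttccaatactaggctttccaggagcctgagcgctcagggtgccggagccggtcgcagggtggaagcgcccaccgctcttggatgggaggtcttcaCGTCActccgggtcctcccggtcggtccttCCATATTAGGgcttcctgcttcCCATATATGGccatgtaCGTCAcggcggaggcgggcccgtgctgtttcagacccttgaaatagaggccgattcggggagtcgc
Egr2, chr20:21054442-21054691, minus strand: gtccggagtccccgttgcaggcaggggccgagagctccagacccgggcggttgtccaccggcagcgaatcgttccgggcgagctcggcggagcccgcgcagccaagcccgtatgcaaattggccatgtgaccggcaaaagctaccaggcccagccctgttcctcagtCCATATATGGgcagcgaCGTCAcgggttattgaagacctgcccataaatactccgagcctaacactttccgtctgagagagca
Nr4a1, chr7:134259888-134260137, plus strand: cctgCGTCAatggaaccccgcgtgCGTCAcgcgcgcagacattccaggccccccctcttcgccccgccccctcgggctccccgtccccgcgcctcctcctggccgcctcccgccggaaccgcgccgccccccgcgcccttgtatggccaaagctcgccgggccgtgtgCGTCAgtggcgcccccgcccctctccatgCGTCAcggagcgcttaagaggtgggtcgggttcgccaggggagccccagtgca
Npas4, chr1:211716103-211716352, minus strand: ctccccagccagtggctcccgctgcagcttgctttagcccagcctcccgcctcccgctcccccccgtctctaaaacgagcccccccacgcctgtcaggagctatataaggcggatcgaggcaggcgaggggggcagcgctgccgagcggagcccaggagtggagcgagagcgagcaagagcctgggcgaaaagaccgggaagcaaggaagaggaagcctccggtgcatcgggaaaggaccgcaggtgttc

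The CRE core was present in 3 of these 4 windows, with 2 sites in Egr1, 1 in Egr2 and 4 in Nr4a1. It was present in 18.2% of the 33469 promoter windows of the same length. A CArG box was present in 2 of the 4 windows, those of Egr1 (2 boxes) and Egr2 (1 box), and in 1.5% of all windows. In both Egr1 and Egr2, a CArG box lay 83 to 74 bases and a CRE core 66 to 62 bases before the start. The full CRE TGACGTCA, which contains the core on both strands, was in none of the 4 windows (0 of 4) and in 1.59% of all. The GC box GGGCGG, the core bound by Sp1, was in 2 of the 4 windows, 3 times in Nr4a1 and 1 time in Egr2, and in 30.5% of all windows. The sequence TATAAA was in 0 of the 4 windows and in 12.9% of all. The windows of Egr1, Egr2, Npas4 and Nr4a1 held 63.2%, 62%, 66.8% and 74.8% G and C, against a median of 51.2% over all windows. A match is a description of the letters in these windows only.

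The libraries held 56393423 to 67733469 counts each. Levels are given in CPM (counts scaled to a common library total) after TMM scaling of library totals, and levels of different genes are not compared because the values are not corrected for length. The lowest count of any of the 7 genes was 44, for Npas4 in ICH replicate 2, with an exact 95% Poisson interval of 32 to 59.1 that covers counting error only. Libraries differed in how far they stood from sham over all genes. The median absolute difference of log2 CPM from the mean of the other sham libraries was 0.133 in Sham replicate 1 and 0.086 to 0.108 in the other sham libraries. The same difference from the sham mean was 0.143 in ICH replicate 5 against 0.235 and 0.209 in ICH replicates 1 and 2, and 0.127 to 0.156 in ICH_MA.

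Fos and Jun form the AP-1 transcription factor. In Sham replicates 1 to 5, Fos stood at 18.4, 17.9, 30.2, 31.7 and 42.2 CPM. It stood at 17.2, 17.6 and 15.4 CPM in ICH replicates 1, 2 and 5, and at 16.8, 16.8 and 11.6 CPM in ICH_MA replicates 1, 2 and 3. All 6 libraries with hemorrhage lay below the lowest sham library, but ICH replicate 2, at 17.6 CPM, came close to Sham replicate 2, at 17.9 CPM. Jun, a partner of Fos in binding DNA, had a different pattern. It stood at 67.9, 78.3, 83.1, 95 and 93.5 CPM in Sham, at 83.2, 94.8 and 70.2 CPM in ICH, and at 80.3, 75.6 and 86.7 CPM in ICH_MA. For Jun the 3 groups overlapped throughout, and the means of Sham, ICH and ICH_MA were 83.6 ± 11.2 (SD, n = 5), 82.7 ± 12.3 (SD, n = 3) and 80.8 ± 5.59 CPM (SD, n = 3).

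Egr1 and Egr2 are zinc finger transcription factors induced by synaptic activity and growth factors. Egr1 stood at 133, 127, 211, 168 and 251 CPM in Sham replicates 1 to 5. It stood at 87.5, 49.9 and 104 CPM in ICH and at 104, 92.8 and 72.6 CPM in ICH_MA. No library with hemorrhage reached the sham range. Egr2, known also as a regulator of myelination by Schwann cells, stood at 7.46, 4.6, 14.9, 11.3 and 18.2 CPM in Sham, at 5.07, 1.89 and 2.72 CPM in ICH and at 4.74, 5.07 and 3.02 CPM in ICH_MA. Here the groups overlapped through Sham replicate 2, which lay below ICH replicate 1 and below ICH_MA replicates 1 and 2.

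Npas4 is a transcription factor of neurons that responds to calcium and adjusts inhibitory synapses. It stood at 7.43, 6.77, 17.5, 15.7 and 22.9 CPM in Sham replicates 1 to 5. It stood at 2.76, 0.731 and 4.89 CPM in ICH and at 5.84, 3.26 and 3.35 CPM in ICH_MA. All libraries with hemorrhage lay below sham, and ICH replicate 2 lay far below the other ICH libraries, with 44 counts against 165 and 323. Nr4a1 is an orphan nuclear receptor that acts as a transcription factor. It stood at 48.5, 51.2, 85.5, 79.5 and 129 CPM in Sham, at 28.7, 17.4 and 32 CPM in ICH, and at 27, 33.9 and 22.5 CPM in ICH_MA, again without overlap between sham and either hemorrhage group.

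Arc encodes a protein that drives removal of AMPA receptors from synapses, and its RNA travels to active dendrites. It is the one effector of the synapse among the 7 genes, the others being transcription factors. In Sham replicates 1 to 5 it stood at 76.7, 73.2, 183, 158 and 265 CPM. In ICH it stood at 44.4, 24.3 and 52.3 CPM and in ICH_MA at 37.3, 53.9 and 27.6 CPM, so the highest library with hemorrhage, ICH_MA replicate 2, lay below the lowest sham library.

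**Figure D1:**
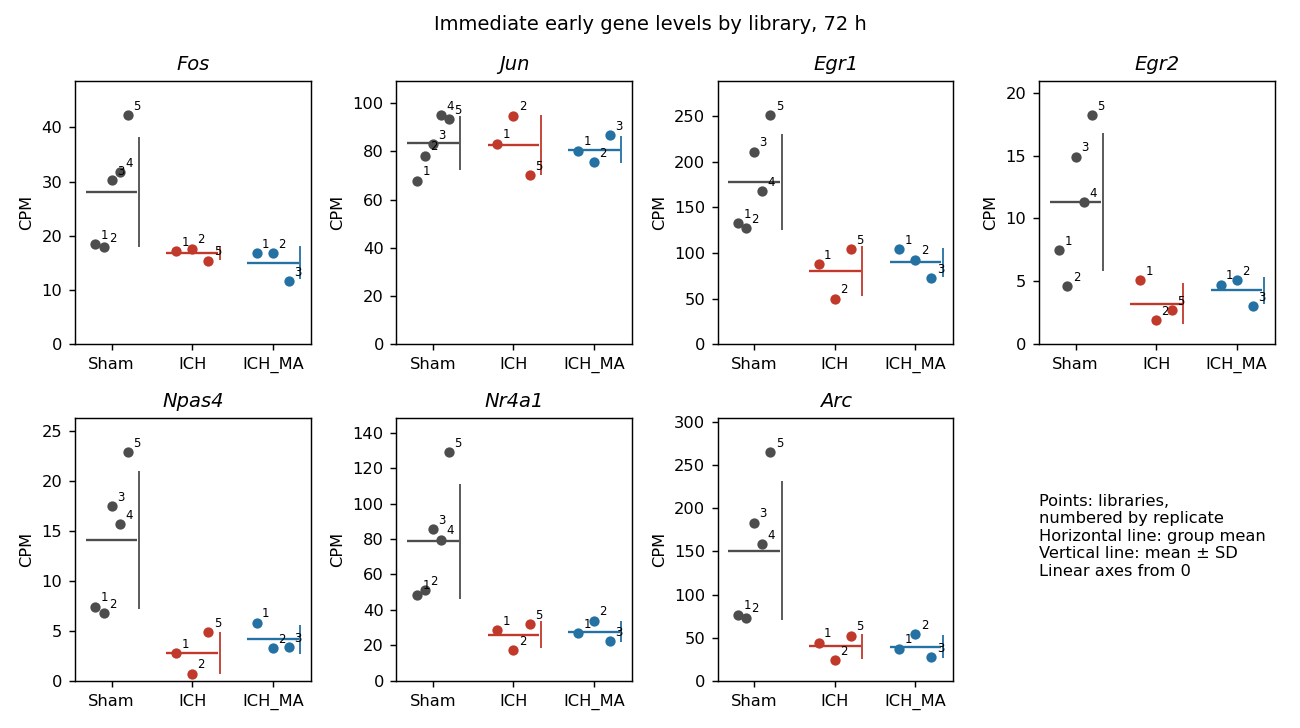
Level of each of the 7 genes in CPM (linear axes from 0) in every library, with points numbered by replicate, horizontal lines at group means and vertical lines for ± SD. Jun is the gene whose groups overlap throughout, and in the other 6 panels the Sham points spread widely above the points of both hemorrhage groups, with overlap for Egr2 only.

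The first comparison describes the state of these genes after hemorrhage. Of the 7 genes, 6 had lower means in ICH than in Sham by more than their SE, and Jun did not. Npas4 was at 2.79 ± 2.08 CPM in ICH (SD, n = 3) against 14.1 ± 6.88 CPM in Sham (SD, n = 5). This is 20% of the sham level (log2 fold change −2.32, SE 0.58). Arc was at 40.3 ± 14.4 against 151 ± 80.1 CPM (log2 fold change −1.91, SE 0.45). Npas4 and Arc had the lowest ratios to sham among the 7 genes, and a link of this order to cell type was not tested. Egr2 followed with 3.23 ± 1.65 against 11.3 ± 5.48 CPM (log2 fold change −1.80, SE 0.46). Nr4a1 was at 26 ± 7.69 against 78.7 ± 32.5 CPM (log2 fold change −1.59, SE 0.33). Neighbours among Npas4, Arc, Egr2 and Nr4a1 in this order differed by less than their SEs. Egr1 was at 80.5 ± 27.7 against 178 ± 52.8 CPM (log2 fold change −1.15, SE 0.27). Fos was at 16.8 ± 1.18 against 28.1 ± 10.2 CPM, which is 59.7% of the sham level (log2 fold change −0.74, SE 0.26). For Jun the log2 fold change was −0.01 (SE 0.12), and it was not below 0 in 3 of the 16 alternatives other than the replicate block.

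The ICH and Sham groups did not overlap for 5 of the 7 genes (Fos, Egr1, Npas4, Nr4a1 and Arc), against 26.0% of all 14963 genes and 10.9% in the lower direction. The median log2 fold change was −1.59 over the 7 genes and 0 over all genes. The count of members past edgeR's threshold is given here for the record alone, as 5 of 7 beside 24.5% of all genes and 9.44% in the lower direction. Since this contrast was known when the list was made, nothing is read from these counts.

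The second comparison asked how treated rats with hemorrhage differed from sham. It shares the sham libraries with the first comparison, so its values are not independent of them. In ICH_MA brain, Nr4a1 and Arc were lower than in Sham. Most of the listed genes, Npas4, Nr4a1 and Arc among them, varied together over the libraries. Since the ICH_MA levels of Npas4 were known, the adjusted p of Nr4a1 and Arc is not independent evidence about the list. Nr4a1 averaged 27.8 ± 5.75 CPM in ICH_MA (SD, n = 3), which is 35.3% of the sham level (log2 fold change −1.50, SE 0.33, adjusted p = 0.0213 by edgeR's quasi-likelihood test). Arc averaged 39.6 ± 13.3 CPM, which is 26.2% of the sham level (log2 fold change −1.93, SE 0.45, adjusted p = 0.0286 by edgeR). Both genes were below every sham library in 3 of 3 ICH_MA libraries.

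Of the other tested genes, Egr1, Fos and Egr2 had lower means that did not pass. Egr1 averaged 89.9 ± 16 CPM in ICH_MA (log2 fold change −0.99, SE 0.27, adjusted p = 0.0534 by edgeR). Fos averaged 15 ± 3.03 CPM (log2 fold change −0.90, SE 0.27, adjusted p = 0.068 by edgeR). Egr2 averaged 4.28 ± 1.1 CPM (log2 fold change −1.40, SE 0.45, adjusted p = 0.0872 by edgeR). For Jun the difference was small (log2 fold change −0.05, SE 0.12, 95% interval −0.31 to 0.21, adjusted p = 0.861 by edgeR). It rounded to 0 in 2 of the 16 alternatives other than the replicate block. Npas4, described without a test, averaged 4.15 ± 1.46 CPM in ICH_MA (log2 fold change −1.76, SE 0.56).

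Thus 2 of the 6 tested genes (33.3%) were called, both lower, against 6.67% of all genes and 1.67% called lower. The groups did not overlap for 4 of these 6, all lower, nor for Npas4, against 19.0% of all genes and 7.20% in the lower direction. An unadjusted edgeR p under 0.05 was seen for 5 of the 6 genes and for 3366 of the 14963 genes tested. The median log2 fold change was −1.40 over the 7 genes, Npas4 included, and 0 over all genes. The Sham libraries here are those of the contrast known when the list was made, and most of the genes varied together over the libraries. These shares are therefore a description and not independent evidence about the list.

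These calls depended on single libraries. Without ICH_MA replicates 1, 2 and 3 in turn, edgeR's adjusted p was 0.0748, 0.0599 and 0.0894 for Nr4a1 and 0.0898, 0.0678 and 0.115 for Arc, so that 0 of the 6 genes were called in each case. Each of these fits leaves 2 ICH_MA libraries. They called 459, 348 and 506 of all genes, against 998 of 14963 in the fit as reported. Without Sham replicates 3, 4 and 5 in turn, Arc had an edgeR adjusted p of 0.0612, 0.0572 and 0.0522, leaving 1 gene, Nr4a1. All genes called there numbered 545, 577 and 569. Without Sham replicate 1 the number called among the 6 was 4 (Fos, Egr1, Nr4a1 and Arc), beside 1338 of all 14953 genes. Without Sham replicate 2 it was 4 (Fos, Egr2, Nr4a1 and Arc), beside 570 of all 14954 genes. Without ICH replicate 2, which is in neither group here but adds to the common estimate of spread, it was 3, with Egr1 added. Without ICH replicate 5 it was also 3, again with Egr1 added. All genes called numbered 1033 without ICH replicate 2 and 1575 without ICH replicate 5. DESeq2 called 5 of the 6, all except Jun, beside 1823 of all 15082 genes. With limma-voom the same 2 were called as with edgeR, beside 754 of all genes. Over the 16 alternatives other than the replicate block, which is given in the closing section, the log2 fold change was −1.67 to −1.26 for Nr4a1 and −2.22 to −1.64 for Arc. The adjusted p (edgeR, DESeq2 or limma) ran from 7.94e-04 to 0.0894 for Nr4a1 and from 0.00101 to 0.115 for Arc.

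**Figure D2:**
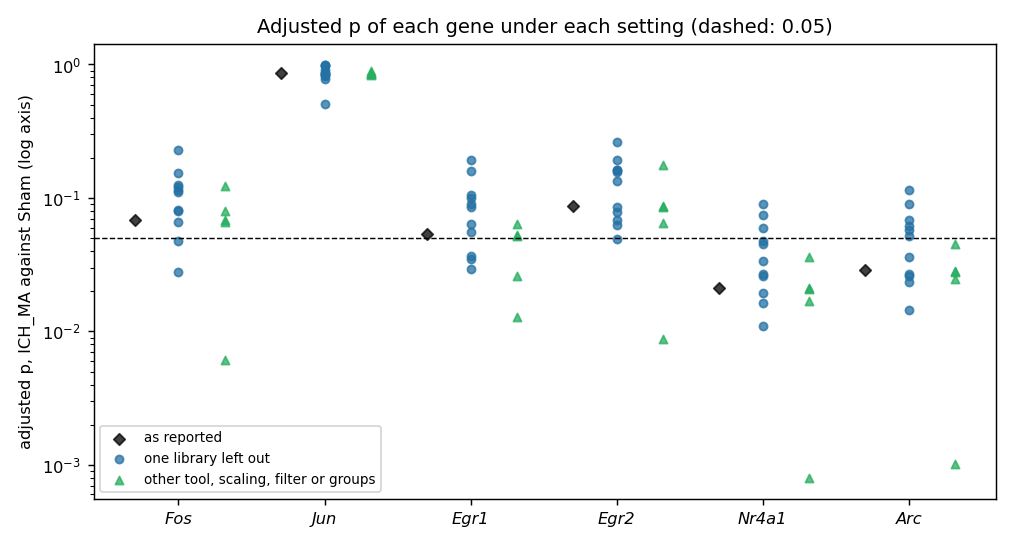
Adjusted p of each gene for ICH_MA against Sham (log axis) as reported and under the 16 alternatives other than the replicate block, for the 6 tested genes, with the dashed line at 0.05. Nr4a1 and Arc sit on both sides of the line, most points of Fos, Egr1 and Egr2 lie above it, and all points of Jun are above 0.5.

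The third comparison asked how these genes differed between ICH_MA and ICH, that is, with and without mithramycin A after hemorrhage. Whether the ICH rats received a vehicle is not given by the group labels. None of the 6 tested genes passed the threshold between ICH_MA and ICH (0 of 6 with edgeR, DESeq2 and limma-voom, and 0 of 6 at an unadjusted edgeR p under 0.05). Over all genes, 0% passed with edgeR, with 2318 of 14963 at an unadjusted p under 0.05, while DESeq2 called 476. The groups overlapped for all 7 genes, where 17.0% of all genes did not overlap. The signs were mixed, with 4 of the 7 genes higher and 3 lower in ICH_MA, and the median log2 fold change was 0.09.

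The intervals show what size of change these libraries leave possible. Jun had the narrowest, a log2 fold change of −0.03 with a 95% interval of −0.32 to 0.26 (edgeR adjusted p = 0.935). For Fos it was −0.16 with an interval of −0.79 to 0.48, and for Egr1 0.16 with an interval of −0.49 to 0.80. Nr4a1 had a log2 fold change of 0.09 with an interval of −0.67 to 0.85. For these transcription factors, each interval, taken for 1 gene alone, leaves out a 2-fold change in either direction. Arc had −0.03 with an interval of −1.06 to 1.00, so a 2-fold change is not left out. Egr2 had 0.40 with an interval of −0.66 to 1.47. Npas4, described without a test, had means of 4.15 CPM in ICH_MA and 2.79 CPM in ICH (log2 fold change 0.57, SE 0.60). Its log2 fold change moved to 0.11 without ICH replicate 2, to 1.25 without ICH replicate 5 and to 0.24 without ICH_MA replicate 1.

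**Figure D3:**
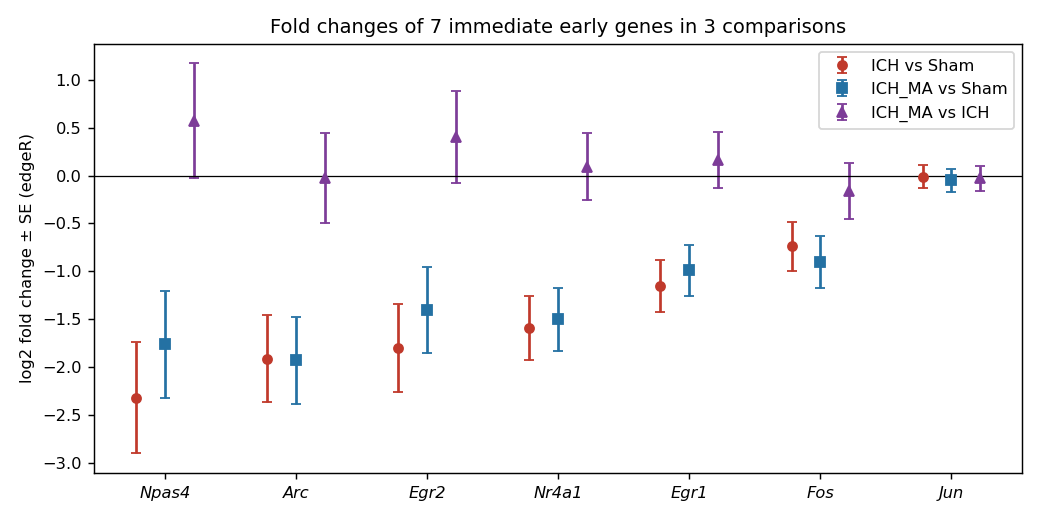
log2 fold change (± SE, edgeR) of each gene in the 3 comparisons, ordered by the value for ICH against Sham. The values of ICH and ICH_MA against Sham lie near each other for each gene, from about −2 for Npas4 and Arc to about 0 for Jun, and those of ICH_MA against ICH lie around 0.

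The levels differed widely between rats of the same group. In Sham, the SD of log2 CPM between the 5 libraries was 0.81 for Arc, 0.79 for Egr2, 0.78 for Npas4, 0.58 for Nr4a1, 0.53 for Fos and 0.42 for Egr1. The median SD was 0.12 over the 14390 genes with a mean of at least 1 CPM. The SD of Arc, Egr2 and Npas4 exceeded that of 98.6%, 98.5% and 98.5% of these genes, and that of Jun, 0.20, exceeded 73.3%. On the linear scale, the highest sham library exceeded the lowest 3.95-fold for Egr2, 3.62-fold for Arc and 3.37-fold for Npas4, but 1.4-fold for Jun. The spread was also wide inside ICH, where Npas4 had an SD of 1.38 and a 6.69-fold range. Fos was an exception there, with an SD of 0.10, below the median of 0.14 over all genes. In ICH_MA the SDs ran from 0.10 for Jun to 0.48 for Arc, against a median of 0.11 over all genes. The model's biological coefficient of variation, the relative spread between rats beyond counting error, was 0.50 for Npas4, 0.40 for Egr2, 0.39 for Arc and 0.12 for Jun, with a median of 0.11 over all genes.

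**Figure D4:**
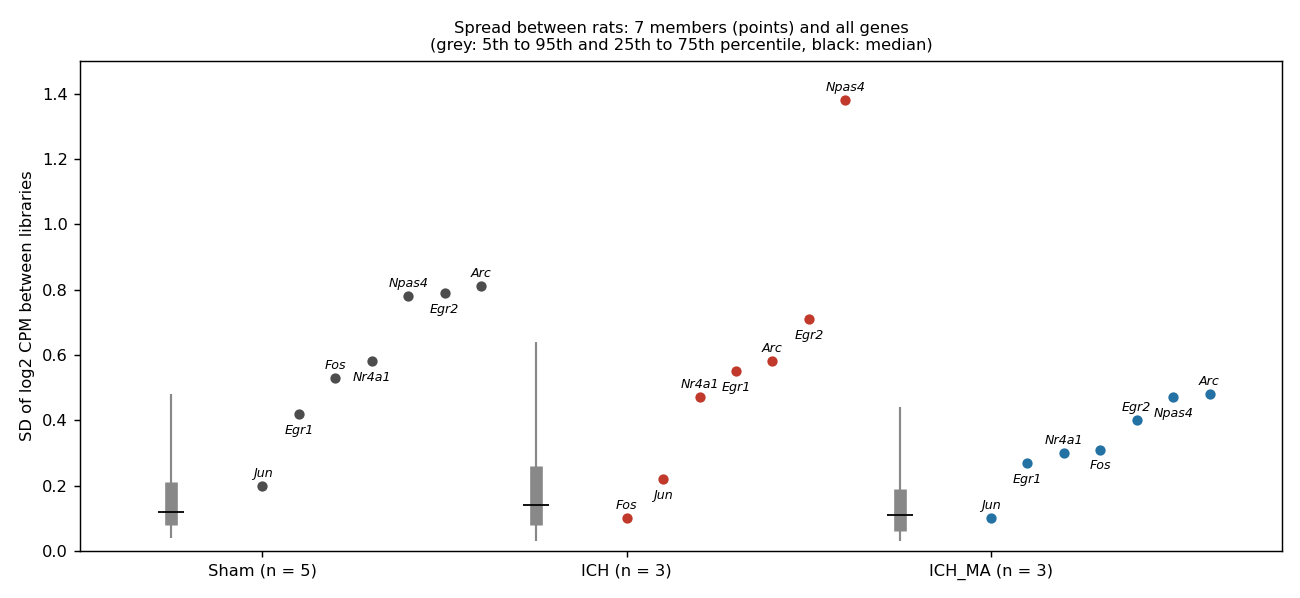
SD of log2 CPM between libraries of a group for the 7 genes (points) beside all genes with a mean of at least 1 CPM (thin grey line 5th to 95th percentile, thick grey bar 25th to 75th, black line median). In Sham the points of Arc, Egr2 and Npas4 stand near 0.8 against a median of 0.12.

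The genes were high and low in the same sham libraries. Sham replicate 5 was the highest sham library for 6 of the 7 genes, all except Jun, for which Sham replicate 4 was highest. Sham replicates 1 and 2 were the lowest pair of sham libraries for all 7 genes, Jun included. The mean over the 7 genes of log2 CPM relative to the sham mean was −0.54 and −0.64 in Sham replicates 1 and 2, 0.31 and 0.18 in replicates 3 and 4, and 0.70 in replicate 5. Sham replicate 1 stood farthest from the other sham libraries over all genes, whereas Sham replicate 2, equally low for these genes, stood nearest (0.133 and 0.086, as above). In the hemorrhage libraries the same mean was −1.10, −1.88 and −1.08 in ICH replicates 1, 2 and 5 and −0.99, −1.01 and −1.43 in ICH_MA replicates 1, 2 and 3. ICH replicate 2 was the lowest ICH library for 5 of the 7 genes, but the highest for Fos and Jun. ICH replicate 5, the ICH library nearest to sham over all genes, was the highest ICH library for 4 genes (Egr1, Npas4, Nr4a1 and Arc) and the lowest for Fos and Jun. ICH_MA replicate 3 was the lowest ICH_MA library for 5 genes.

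**Figure D5:**
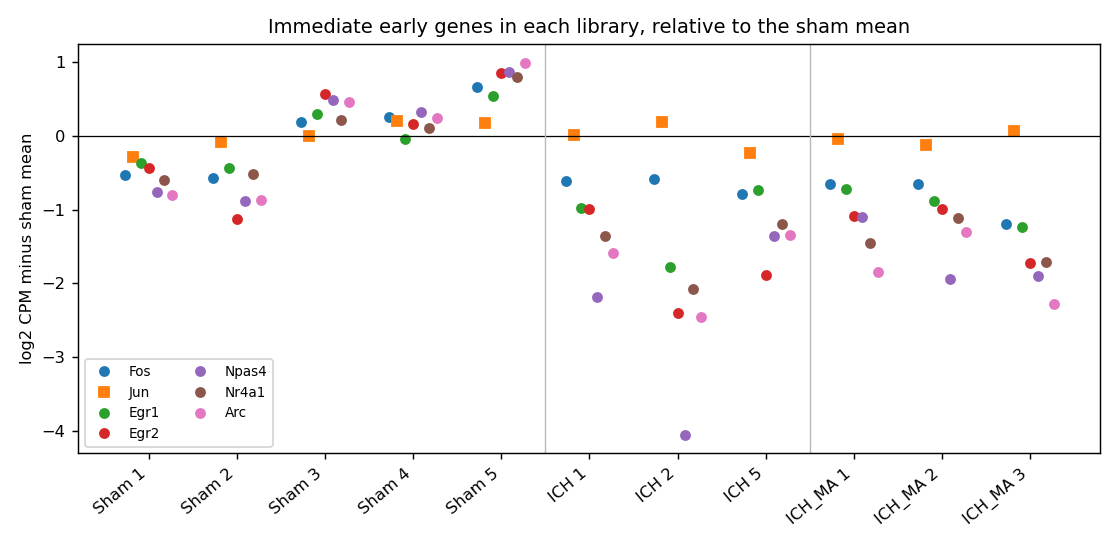
log2 CPM of each gene minus its sham mean, in every library, with grey lines between the groups. Among the sham libraries, all 7 genes are lowest in replicates 1 and 2, and all but Jun (squares) are highest in replicate 5. All values in ICH and ICH_MA except those of Jun are below −0.5.

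How alike the genes were can be put as the correlation of each with the mean standardized profile of the other 6 over the 11 libraries. This is a description, since the libraries share groups and the genes share libraries. Pearson's r was 0.966 for Arc, 0.962 for Nr4a1, 0.935 for Egr2, 0.923 for Egr1, 0.919 for Fos and 0.866 for Npas4, and 0.18 for Jun. The low value of Jun goes with its overlapping groups, and the difference between Jun and the other genes was not itself tested.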

How the data were processed

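The authors deposited 1 table of raw whole-number counts for 15094 Ensembl rat gene identifiers. Bowtie2, RSEM 1.3.1, DESeq2 1.4.5 and the build mRatBN7.2 are named in the submitters' processing notes. The role of each tool, the annotation, strand use, filters and any rounding of estimated counts are not stated in the sources at hand. Reads shared by related genes could be divided by the counting.

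The 7 members were matched by identifier, and promoters by symbol. The members and all lists were chosen with earlier results of these data known. Planned lists of other activity genes and cell type markers were not used, because the rows could not be paired with names.

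Genes were filtered with filterByExpr (minimum count 10, minimum total 15; 14963 kept), scaled by TMM and tested with the quasi-likelihood test of edgeR 4.0.16 (R 4.3.3). All 11 libraries entered 1 model with group means, and Benjamini-Hochberg adjustment ran over all genes tested. The log2 CPM values used a prior count of 2. Alternatives were DESeq2 1.42.0, limma-voom (limma 3.58.1), RLE scaling, no filter, only the groups compared, a replicate block and each library left out. The functions were tested on simulated data. All 7 listed genes present are named. The pair of genes most like them was taken by the highest Pearson r among genes with a mean of at least 1 CPM. The labelled samples without a column, 4 of 15, were not analysed here.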

Additional observations from a re-analysis of the deposited data

How the results depend on the processing

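The direction of Fos, Egr1, Egr2, Npas4, Nr4a1 and Arc against Sham was the same in ICH and in ICH_MA under all 17 alternatives. Jun changed sign against Sham in ICH under some of them, and in ICH_MA its log2 fold change ran from −0.12 to 0 after rounding. For the 6 tested genes in the comparisons with ICH_MA, 183 values stayed on their side of the threshold, 10 passed it only under the alternative and 11 no longer passed. All of these changes were in ICH_MA against Sham, because none of the 6 genes was called in ICH_MA against ICH under any setting. The 11 values that no longer passed were all of Nr4a1 and Arc, the only genes with a call to lose. With 1 library left out, all genes called for ICH against Sham ran from 1992 to 4484. The number of the 7 listed genes among them ran from 3 to 6, from which nothing is read because that contrast was known when the list was made. For ICH_MA against Sham with 1 library left out, 0 to 4 of the 6 tested genes and 348 to 1575 of all genes were called. For ICH_MA against ICH, all genes called ran from 0 to 1137, the latter without ICH replicate 5. DESeq2 called 5 of the 6 tested genes and 1823 genes in all for ICH_MA against Sham (61.9% of them higher, against 74.9% with edgeR). It called 476 genes for ICH_MA against ICH. When the model held just Sham and ICH_MA, 3 of the 6 tested genes and 1541 in all were called for ICH_MA against Sham. The cause of these shifts was not tested. Same-numbered libraries of different groups did not deviate together (correlations of −0.156 to 0.085 over 8 pairs). Whether the numbers pair the rats cannot be settled from so few pairs. With replicate number as a block, 1914 genes were called for ICH against Sham, and 0 of the 6 tested genes and 117 in all for ICH_MA against Sham. There Nr4a1 had a log2 fold change of −1.20 (edgeR adjusted p = 0.147) and Arc of −1.48 (edgeR adjusted p = 0.209). For the genes with the fewest counts, Egr2 and Npas4, the spread between rats exceeded counting error, so the number of rats limits the precision.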

Other observations

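Among the 14383 other genes with a mean of at least 1 CPM, the pair most like the mean standardized profile of the 7 genes over the 11 libraries was ENSRNOG00000011921 (Pearson's r = 0.961) and ENSRNOG00000065682 (r = 0.95), for which the files give no name. ENSRNOG00000011921 was at 22.1 ± 4.35 CPM in Sham (SD, n = 5), 12.1 ± 1.28 CPM in ICH (SD, n = 3) and 13.2 ± 1.51 CPM in ICH_MA (SD, n = 3). ENSRNOG00000065682 was at 72 ± 20.7, 49.6 ± 6.03 and 48.6 ± 6.77 CPM in the same groups. These genes were selected for their likeness, so their values are a description.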
